A study of Mus musculus with 8 samples.

Results

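Macrophages given 25HC and then PAM3 were compared with macrophages given neither, so the groups differ in both agents. The comparison holds 4 of the 8 libraries of the series: 1 from mouse A and 1 from mouse B for the combined treatment, and 1 from each mouse for untreated cells. The other 4 libraries, PAM3 alone and 25HC alone from the same mice, show each change beside the single agents and add to the estimate of spread. All cells were bone-marrow-derived macrophages (BMDM in the labels) of C57BL/6 mice, cultured outside the animal, and acetylated histone H4 was mapped in them by chromatin immunoprecipitation with a rabbit polyclonal antibody. The label for stimulation time carries no unit and reads 0 for untreated cells and 25HC alone, and 18 for PAM3 alone and the combined treatment. PAM3 and that time cannot be told apart, and neither a dose nor the length of the 25HC treatment is given in the sources used here.

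Acetylation of the histone H4 tail loosens nucleosome contacts and marks active promoters and enhancers. PAM3 is a synthetic lipopeptide that the receptor pair of TLR2 and TLR1 senses. The pair signals through MyD88 to NF-κB and AP-1, which switch on cytokine, chemokine and antimicrobial genes. 25HC, 25-hydroxycholesterol, is the oxysterol that the enzyme Ch25h makes in activated macrophages. It is a ligand of the LXR receptors, which drive cholesterol export, and it holds back the SREBP factors, which drive cholesterol synthesis.

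Each gene was measured by its called length: how many bp of the authors' peaks lie in its gene body or in the 5 kb on either side. A log2 change is on the log2 scale of called bp plus 500, after subtraction of each library's median. Genes rose or fell where the Benjamini-Hochberg adjusted p of limma was under 0.05. Each value pair below gives mouse A first and mouse B second.

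The peaks covered 68.4 and 65.4 Mb in untreated cells and 63.5 and 69.6 Mb after the combined treatment, so the groups overlap. Untreated and combined libraries shared 0.479 to 0.486 of their joint covered bp over the 4 pairs across groups, against 0.670 between both untreated libraries and 0.638 between both combined libraries. Median −log10 q of a peak was 8.65 and 7.41 in untreated cells and 5.41 and 5.97 after the combined treatment, so the combined peaks carried the authors' weaker q-values. The PAM3 libraries differed most within a group, with 56.6 and 72.4 Mb. All 8 macrophage markers (Adgre1, Csf1r, Cd68, Itgam, Mertk, Fcgr1, Spi1 and Lyz2) had peaks in every library, with summed lengths of 72142 and 61719 bp in untreated and 70355 and 81348 bp in combined libraries. Of the markers of other cells, 5 dendritic cell markers summed to 27855 and 30022 bp in untreated and 20048 and 16546 bp in combined libraries. Sums for 7 neutrophil markers were 8746 and 8811 against 6461 and 5519 bp, with Ly6g, S100a9 and Ngp at 0 in all 4. Those for 7 lymphocyte markers were 6338 and 9155 against 4701 and 6041 bp, with Cd3e and Ncr1 at 0. For 5 fibroblast and endothelial markers they were 14990 and 13978 against 12908 and 13525 bp, with Col1a2 at 0, and for 5 erythroid and megakaryocyte markers 8074 and 7762 against 8845 and 9885 bp, with Gata1 at 0. In none of these 5 cell types did the groups overlap: the combined sums were lower in 4 and higher for the erythroid and megakaryocyte markers. The part of these cells in the results was not tested, and fewer cells of a type and a shorter mark per cell cannot be told apart.

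After the combined treatment acetylation lengthened over the neutrophil attractant gene Cxcl2, the acute-phase genes Saa1 to Saa4, Fpr1 and Fpr2, which encode formyl peptide receptors, the antimicrobial protein genes Lcn2 and Camp, and the adhesion receptor gene Adgre1. It shortened over the complement genes C1qa, C1qb and C1qc, over Kmo and Siglech, over the scavenger receptor gene Stab2 and over the sterol transporter gene Abcg8. Of 14589 genes tested, 554 rose (3.8%) and 558 fell (3.82%), together 1112 (7.62%). Of the rises 300 exceeded 1 on the log2 scale, and of the falls 292. The windows of 50 rises were at 0 in both untreated libraries, and those of 92 falls were at 0 in both combined libraries. Where both libraries of a group are at 0, called lengths are given without a log2 change, and 2 values of 0 add no spread to the test, which can make p too small. With the mouse as a block, 575 genes passed (3.94%), 287 rising and 288 falling. Without 1 library the count was 302 (untreated A), 436 (untreated B), 698 (combined A), 415 (combined B), 550 and 556 (25HC A and B) and 1140 and 1144 (PAM3 A and B). The balance moved with the group that lost a library, to 217 rising and 85 falling without untreated A, 312 and 124 without untreated B, 212 and 486 without combined A, and 135 and 280 without combined B. With only peaks of −log10 q of 5 or more, 0 genes passed (limma; 1472 at unadjusted p under 0.05), a filter that kept 66.5% and 61.9% of untreated and 52.7% and 55.8% of combined peaks. With those peaks the log2 values of Tnf, Cd14, Tlr5, Igtp, Nr1h3, Hif1a, Trem1, Clec10a, Slamf6, Prrg1 and Jph4, all called with every peak, took the opposite sign. In all 8 fits without 1 library and with the block, 68 rises and 59 falls passed. Of 90 genes named here that passed, 21 lost their call with the block, 47 in a fit on the 4 compared libraries, 63 with bp weighted by the authors' fold enrichment and 71 with each library cut to the same covered length.

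Neighbouring genes share peaks, since 10195 of the tested windows (69.9%) overlap another one and 194 of the 1112 passing genes overlap another passing gene. That holds for 25 of the 90 named genes. Besides those said below to overlap, they are Kmo, Abcg8, Zfp811, Tnf, Igtp, Nr1h3, Kif4, Zp3, Bmp1, Omd, Lrrc14b, Snx31 and Rad51b, and called bp in a shared stretch count for both genes.

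**Figure D1:**
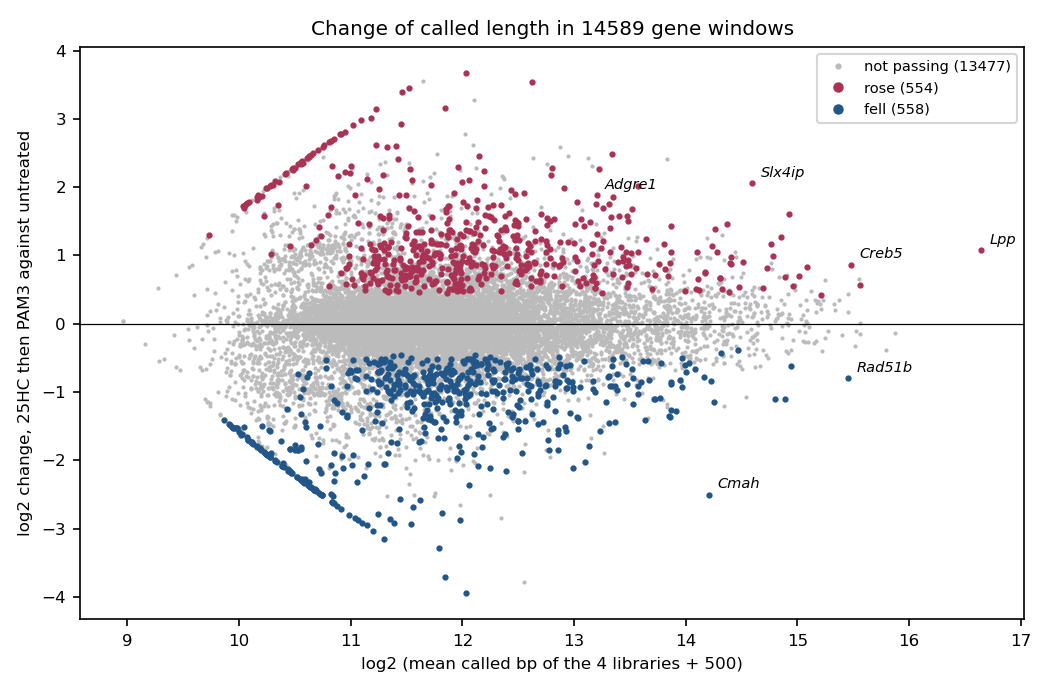
Each point is 1 of 14589 gene windows, with the log2 of its mean called bp over the 4 compared libraries plus 500 on the x axis and its log2 change on the y axis. Red points rose (554), blue points fell (558) and grey points did not pass; the 2 straight edges on the left are genes at 0 in 1 of the groups.

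At 6 start sites the promoter, 250 bases before to 50 after a start in RefSeq on GRCm38.p6, passed between called and not called. They are shown because each belongs to 1 of the clearest rises or falls. The stretches of Rab19 and Il4 lie wholly inside the gene bodies (39380709 to 39390666 and 53612460 to 53618665). They thus belong to internal starts of these genes, not to the outermost ones. Capitals mark matches, on either strand, to the motifs searched: AP-1 (TGANTCA), C/EBP (TTNNGNAA), ETS (GAGGAA), the interferon response element (2 copies of GAAA with 2 free bases between them), the TATA box (TATAAA) and the NF-κB site by its standard consensus. Matches may overlap, as both interferon element matches of Rab19 do. The first 3 starts lay in bins gained after the combined treatment and the last 3 in bins lost.
Rab29: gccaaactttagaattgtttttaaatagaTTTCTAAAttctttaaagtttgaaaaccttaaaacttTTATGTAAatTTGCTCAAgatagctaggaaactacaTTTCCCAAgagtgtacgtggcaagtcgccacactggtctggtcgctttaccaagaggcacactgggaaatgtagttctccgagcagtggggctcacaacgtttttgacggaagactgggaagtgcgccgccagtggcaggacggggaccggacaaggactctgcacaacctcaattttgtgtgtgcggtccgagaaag
Lcn2: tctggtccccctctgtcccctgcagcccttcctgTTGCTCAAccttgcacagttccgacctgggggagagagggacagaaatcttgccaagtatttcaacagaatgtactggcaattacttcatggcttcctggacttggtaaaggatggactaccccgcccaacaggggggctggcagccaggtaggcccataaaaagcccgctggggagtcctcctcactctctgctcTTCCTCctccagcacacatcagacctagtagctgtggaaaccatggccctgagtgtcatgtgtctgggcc
Zfp811: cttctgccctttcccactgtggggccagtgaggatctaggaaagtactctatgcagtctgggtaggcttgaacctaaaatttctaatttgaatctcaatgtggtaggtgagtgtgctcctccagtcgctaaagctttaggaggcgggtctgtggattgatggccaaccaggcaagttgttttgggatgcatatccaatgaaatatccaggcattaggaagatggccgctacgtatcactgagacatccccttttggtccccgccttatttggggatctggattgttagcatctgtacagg
Rab19: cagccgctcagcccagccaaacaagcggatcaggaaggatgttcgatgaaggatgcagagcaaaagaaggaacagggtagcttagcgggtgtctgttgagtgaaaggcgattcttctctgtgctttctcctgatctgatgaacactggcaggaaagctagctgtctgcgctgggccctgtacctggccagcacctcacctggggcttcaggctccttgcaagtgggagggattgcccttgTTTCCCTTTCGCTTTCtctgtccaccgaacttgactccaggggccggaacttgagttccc
Il4: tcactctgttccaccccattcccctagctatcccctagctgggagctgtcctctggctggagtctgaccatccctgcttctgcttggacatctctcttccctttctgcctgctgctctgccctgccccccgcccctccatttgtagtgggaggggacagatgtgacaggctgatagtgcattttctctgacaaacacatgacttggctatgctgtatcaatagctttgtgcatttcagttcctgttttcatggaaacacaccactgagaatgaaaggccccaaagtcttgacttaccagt
Ranbp6: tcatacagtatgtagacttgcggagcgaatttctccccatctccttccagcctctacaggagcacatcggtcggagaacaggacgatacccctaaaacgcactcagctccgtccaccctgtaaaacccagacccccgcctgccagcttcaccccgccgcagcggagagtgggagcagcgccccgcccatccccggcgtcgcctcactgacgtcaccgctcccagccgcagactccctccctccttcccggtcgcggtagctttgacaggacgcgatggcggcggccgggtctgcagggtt
The Rab29 promoter (chr1:131867027-131867326, plus strand) was uncalled in both untreated libraries and wholly covered in the other 6, 25HC alone included. Those of Lcn2 (chr2:32387690-32387989, minus strand) and Zfp811 (chr17:32809882-32810181, minus strand) were uncalled in untreated and 25HC libraries and wholly covered in the 4 libraries with PAM3. The promoters of Rab19 (chr6:39381103-39381402, plus strand), Il4 (chr11:53617289-53617588, minus strand) and Ranbp6 (chr19:29812925-29813224, minus strand) were wholly covered in both untreated and both 25HC libraries and had 0 bp in both combined libraries. With PAM3 alone the stretch of Il4 was wholly covered, that of Rab19 had 300 and 273 bp, and that of Ranbp6 had 0 and 300 bp. A C/EBP match was found in 36% of the 186 promoters in gained bins and 33% of the 221 in lost bins, against 37.3% of all 21263 protein-coding promoters. For AP-1 the shares were 9.68%, 5.43% and 6.99%, and for NF-κB 11.8%, 9.5% and 9.25%. For ETS they were 25.8%, 33.9% and 27.4%, for the interferon element 2.15%, 3.17% and 3.35%, and for the TATA box 7.53%, 10.4% and 12.6%. Among the 7149 promoters in bins called in all 4 compared libraries the shares were 28.8% for C/EBP, 4.42% for AP-1, 11% for NF-κB, 26.5% for ETS, 3.47% for the interferon element and 5.92% for the TATA box. The C/EBP and TATA shares of gained and lost bins thus lay below those of all promoters and above those of the shared ones, which held a median of 23 CpG against 14.5 in gained and 13 in lost bins.

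Cytokine and chemokine genes, the secreted output of the TLR2 pathway, are given first. Their list was chosen with earlier results of these data known, so its counts are a description. Over all genes tested 3.8% rose and 3.82% fell. Of 32 measured members, 6 rose (Tnf, Il6, Il12a, Il1rn, Ccl7 and Cxcl2), 0 fell and 26 did not pass. Their median log2 change was 0.53, against 0.0032 over all genes tested. Values lay above 0 in 7352 of all 14589 genes and in 28 of these 32. With the block 5 rose, and without 1 library between 1 and 5. Cxcl2 (chromosome 5, 90903899 to 90905938), a neutrophil attractant, had 1826 and 2456 bp without treatment and 6074 and 6446 bp after the combined treatment, which is 1.40 ± 0.15 on the log2 scale (± standard error, adjusted p = 0.0116). Both combined libraries lay above every other one, since 25HC alone gave 1076 and 1353 bp and PAM3 alone 2744 and 2972 bp. Il6 (chromosome 5, 30013114 to 30019975), the acute-phase cytokine, had 1376 and 1130 bp without treatment and 4166 and 4902 bp after both agents (log2 1.56, adjusted p = 0.0196). It had 1369 and 1324 bp with 25HC and 1283 and 2696 bp with PAM3, so no library of a single agent reached the combined level. Tested against PAM3 alone, Il6 did not pass (limma, adjusted p = 0.0946). Ccl7, a monocyte attractant whose window overlaps that of Ccl2, went from 2382 and 1756 bp to 5187 and 6274 bp (log2 1.32, adjusted p = 0.0146), with 3834 and 5183 bp for PAM3. Il12a, a subunit of interleukin-12, went from 380 and 356 bp to 3129 and 3184 bp (log2 2.11, adjusted p = 0.0224), beside 1156 and 3138 bp with PAM3. Il1rn, which encodes the interleukin-1 receptor antagonist, rose by 1.55 (adjusted p = 0.0332; block 0.0684) and Tnf by 0.51 (adjusted p = 0.0348; block 0.0587).

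Other cytokine genes did not pass. The inflammatory cytokine gene Il1b had 4146 and 5887 bp in untreated and 5861 and 6554 bp in combined libraries (log2 0.34, adjusted p = 0.525). Il12b, the other subunit of interleukin-12, had a value of −0.48 (adjusted p = 0.307), the anti-inflammatory Il10 −0.37 (adjusted p = 0.178), Cxcl1 0.67 (adjusted p = 0.232) and Ccl2 1.62 (adjusted p = 0.0576). The call of Cxcl2 held in all 8 fits without 1 library, and that of Ccl7 ended without combined B (adjusted p = 0.0556). Those of Il6 and Il12a ended without any 1 of the untreated or combined libraries (adjusted p = 0.0519 to 0.0749 and 0.0754 to 0.0858). That of Tnf ended also without either 25HC library (up to 0.13), and that of Il1rn without any single library (0.0506 to 0.111).

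**Figure D2:**
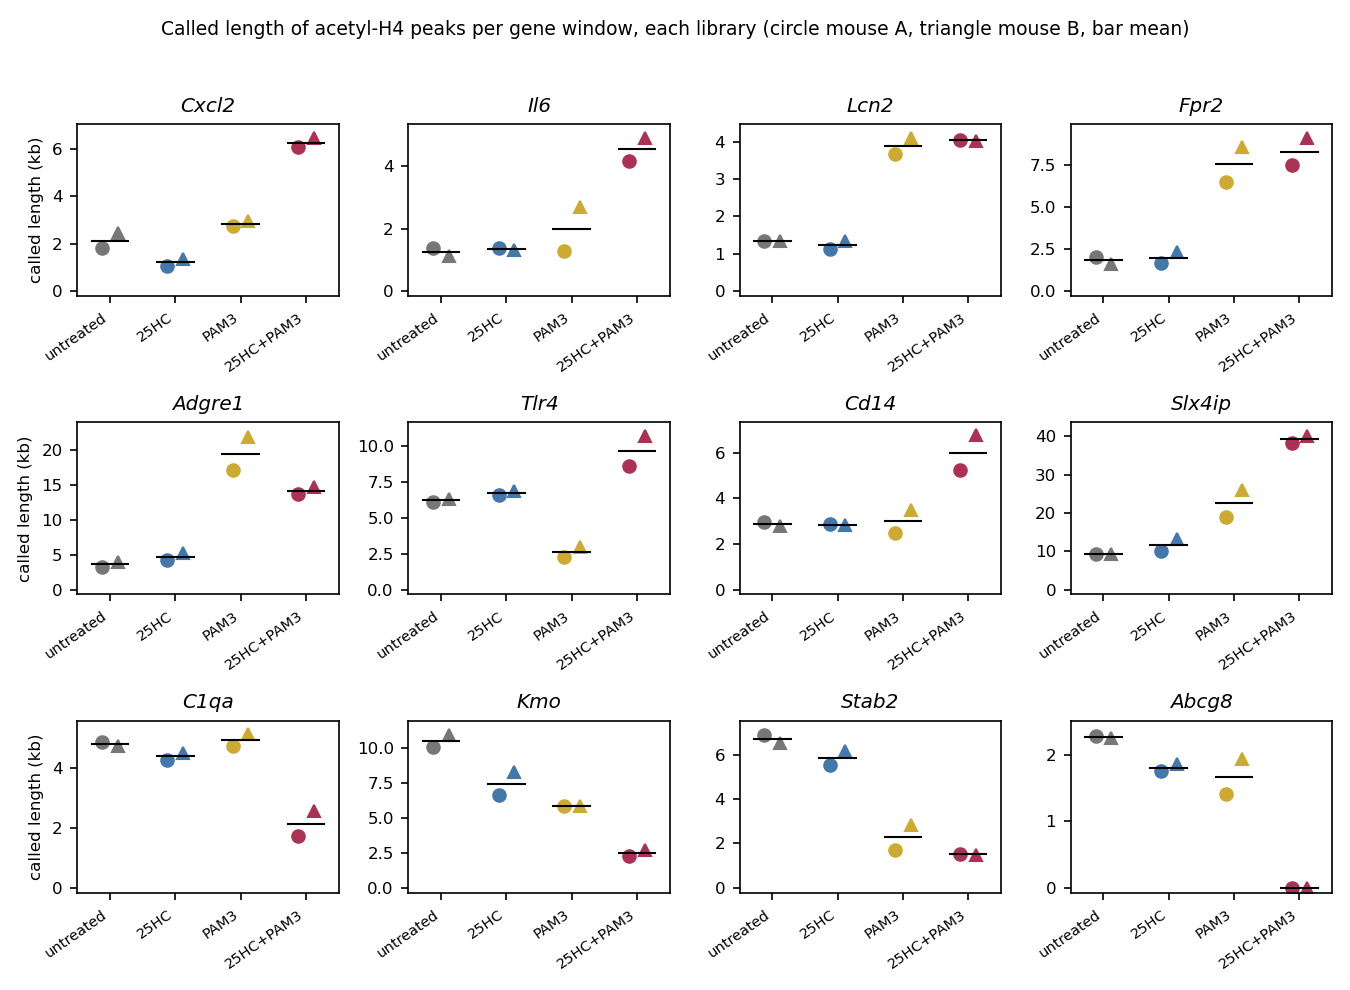
Called length in kb of 12 gene windows in each of the 8 libraries, with a circle for mouse A, a triangle for mouse B and a bar for the mean of the group. Cxcl2, Il6 and Slx4ip were longest after the combined treatment, and Lcn2 and Fpr2 were long in both groups with PAM3. C1qa, Kmo and Abcg8 were shortest after the combined treatment. Tested against PAM3 alone, Il6 and Slx4ip did not pass (limma, adjusted p = 0.0946 and 0.0686).

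Inflammatory effector genes are the enzymes, acute-phase proteins and receptors that activated macrophages add, a list that, like the other 25, was chosen with earlier results of these data known, so its counts are a description. Of all genes tested 3.8% rose and 3.82% fell. In this list of 42 measured members, 15 rose, 0 fell and 27 did not pass. Their median log2 change was 0.63, with values above 0 in 35. With the block 10 rose, and without 1 library between 8 and 15. Lcn2 (chromosome 2, 32384637 to 32387739), which encodes an iron-withholding protein, had 1346 and 1337 bp in untreated and 4045 and 4015 bp in combined libraries (log2 1.34, adjusted p = 0.00717), with 3670 and 4105 bp for PAM3. Sod2, the mitochondrial superoxide dismutase, had 1904 and 1946 bp in untreated cells, 3374 and 4070 bp with PAM3, and 5019 and 6204 bp after both agents (log2 1.36, adjusted p = 0.0073). Camp, the cathelicidin precursor, was at 0 in all libraries without PAM3 and had 1890 and 2133 bp after both agents (adjusted p = 0.00884). PAM3 alone gave 1518 and 1706 bp at Camp. The combined values of Lcn2 lay within or near those of PAM3 alone, while those of Sod2 and Camp lay above them. None of these genes passed against PAM3 alone (limma, adjusted p = 0.934 for Lcn2, 0.0934 for Sod2 and 0.694 for Camp).

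The serum amyloid A genes, which encode acute-phase lipid carriers, sit side by side on chromosome 7. Saa4 (46727992 to 46732603) went from 998 and 1007 bp to 4001 and 4167 bp (log2 1.65, adjusted p = 0.00454) and Saa1 from 492 and 120 bp to 4110 and 4138 bp (log2 2.60, adjusted p = 0.0116). Saa2 was at 0 in untreated and 25HC libraries and had 2453 and 2927 bp after both agents (adjusted p = 0.0107). PAM3 alone gave 3895 and 4269 bp at Saa4 and 2315 and 4895 bp at Saa2. Neither gene passed against PAM3 alone (limma, adjusted p = 0.997 for Saa4 and 0.684 for Saa2). Saa3 went from 2199 and 2411 bp to 5319 and 4561 bp (log2 0.99, adjusted p = 0.0162; 0.0751 without untreated A). The windows of Saa3, Saa4, Saa1 and Saa2 overlap from neighbour to neighbour, so their values are not independent; Saa1 and Saa3 were named after their values were seen. Fpr1 and Fpr2, formyl peptide receptor genes whose products sense bacterial peptides and whose windows also overlap, rose by 1.20 and 1.95 (adjusted p = 0.00774 for each). Fpr2 had 2026 and 1627 bp in untreated cells, 6496 and 8567 bp with PAM3 and 7482 and 9065 bp after both agents. Saa4, Saa1, Saa2, Fpr1, Fpr2, Lcn2, Sod2 and Camp passed against untreated cells in all 8 fits without 1 library.

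Other effectors were less firm or did not pass. Acod1, which makes itaconate, went from 2418 and 2356 bp to 5522 and 5540 bp (log2 1.10, adjusted p = 0.0303, or 0.0591 with the block), and its call ended without any 1 of the compared libraries (0.0923 to 0.113). Nos2, the inducible nitric oxide synthase, had 1478 and 3658 bp in untreated and 2307 and 4351 bp in combined libraries (log2 0.40, adjusted p = 0.605). Ptgs2, the inducible prostaglandin synthase, had 0 and 1016 bp against 2576 and 3689 bp (log2 2.08, adjusted p = 0.0859). For Acod1 the groups are far apart, for Nos2 they overlap, and for Ptgs2 they do not.

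**Figure D3:**
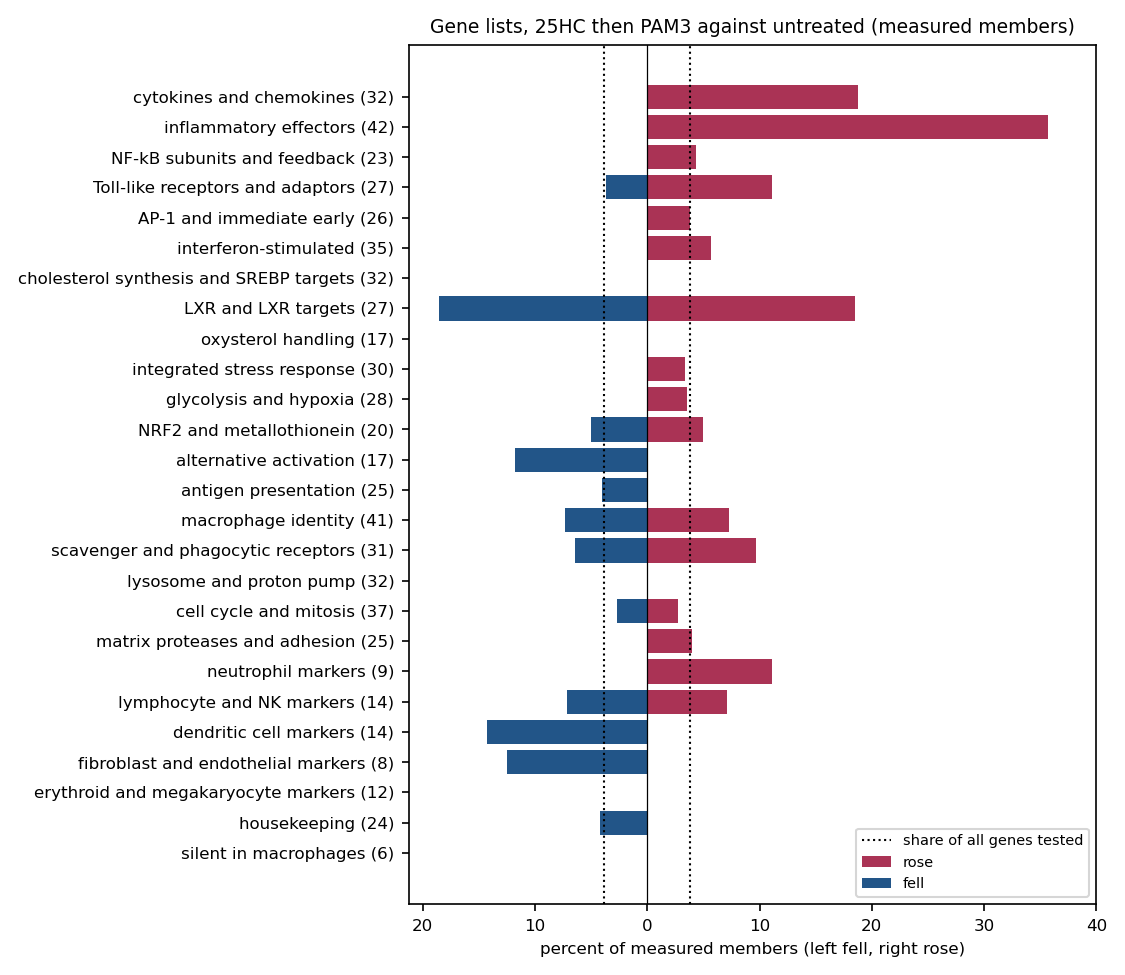
Share of the measured members of each of the 26 gene lists (number measured in parentheses) that rose, to the right, or fell, to the left, after 25HC then PAM3 against untreated. Dotted lines mark 3.8% rising and 3.82% falling over all genes tested; the longest bars are 15 of 42 inflammatory effectors and 6 of 32 cytokines rising, and 5 of 27 LXR genes in each direction.

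Among Toll-like receptors and their adaptors 3 of 27 measured genes rose (Tlr4, Cd14 and Cd36), 1 fell (Tlr5) and 23 did not pass. The median was 0.13. Of all genes tested 3.8% rose and 3.82% fell. Tlr4 (chromosome 4, 66827551 to 66846581), the lipopolysaccharide receptor gene, had 6110 and 6283 bp in untreated cells, 6610 and 6822 bp with 25HC, 2264 and 2943 bp with PAM3 and 8609 and 10651 bp after both agents. PAM3 libraries were thus the lowest and combined libraries the highest (log2 0.63 against untreated, adjusted p = 0.0321, or 0.0531 with the block). Cd14, the co-receptor of Tlr4, had 2973 and 2784 bp in untreated, 2871 and 2837 bp in 25HC, 2499 and 3510 bp in PAM3 and 5240 and 6774 bp in combined libraries (log2 0.97, adjusted p = 0.0185). Every combined value was above every other. Cd36, a lipid scavenger receptor that also serves TLR2, rose by 0.46 (adjusted p = 0.0485; under the block 0.087). Tlr5, the flagellin receptor gene, fell from 4196 and 3333 bp to 1878 and 1790 bp (log2 −0.82, adjusted p = 0.0237). The receptors of PAM3 itself did not pass, with 0.57 for Tlr2 (adjusted p = 0.0776) and 0.29 for Tlr1 (adjusted p = 0.16). The calls of Cd14 ended without combined B and either untreated library (0.0568 to 0.0735) and those of Tlr4 also without either 25HC library (0.0659 to 0.129). Tlr5 lost its call without untreated A, either combined or either 25HC library (0.0522 to 0.0894), and Cd36 without any single library (0.0606 to 0.189).

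Signalling and transcription factor genes mostly did not pass, which also held for all genes tested, of which 7.62% passed. Of 23 NF-κB subunit and feedback genes, Nfkbia rose, which encodes the inhibitor IκBα, from 2782 and 2864 bp to 5547 and 5370 bp (log2 0.88, adjusted p = 0.0137; 0.0633 without untreated A). The NF-κB subunit gene Rel had 4051 and 2425 bp against 7076 and 11955 bp (log2 1.45, adjusted p = 0.0729), and Birc3, an inhibitor of cell death, 1.23 (adjusted p = 0.0711). Of 26 AP-1 and immediate-early genes Klf6 rose, a zinc finger factor gene (log2 0.65, adjusted p = 0.0435, or 0.0618 with the block, and 0.0551 to 0.151 without 1 library). Of 35 interferon-stimulated genes 2 rose and 0 fell. The GTPase gene Igtp rose by 0.55 (adjusted p = 0.0291; under the block 0.0583), and its call ended without any 1 untreated, combined or 25HC library (0.0602 to 0.114). The medians of these 3 lists were 0.18, −0.02 and 0.04. Ifit1 had 3004 and 0 bp in untreated and 1398 and 1530 bp in combined libraries, so a single untreated library sets its value.

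LXR genes and targets moved in both directions. Of all genes tested 3.8% rose and 3.82% fell, and Tlr4 is counted here as well as among the Toll-like receptors. Of 27 measured members, 5 rose (Nr1h3, Mylip, Smpdl3a, Tlr4 and Aqp9), 5 fell (Rxra, Abcg8, Apoe, Apoc1 and Cd5l) and 17 did not pass, with a median of −0.14. With the block 1 rose and 3 fell, and without 1 library between 0 and 4 rose. Abcg8 (chromosome 17, 84676302 to 84700333), 1 chain of a sterol exporter, had 2283 and 2260 bp in untreated, 1767 and 1858 bp in 25HC, 1408 and 1934 bp in PAM3 libraries, and 0 bp in both combined libraries (adjusted p = 0.00454). Its call held in all 8 fits without 1 library. Cd5l, which encodes a secreted macrophage survival protein, went from 7682 and 8321 bp to 2394 and 2776 bp (log2 −1.43, adjusted p = 0.0196). With 25HC alone it had 3693 and 5357 bp and with PAM3 alone 5194 and 4526 bp, all between the untreated and combined values. Tested against either agent alone, Cd5l did not pass (limma, adjusted p = 0.135 for PAM3 and 0.108 for 25HC). Smpdl3a, a phosphodiesterase gene, went from 1587 and 1667 bp to 2973 and 2952 bp (log2 0.74, adjusted p = 0.0207), and Aqp9, a glycerol channel gene, from 4146 and 1869 bp to 14293 and 15940 bp (log2 2.27, adjusted p = 0.0303, or 0.0626 with the block). Rxra, the partner receptor of LXR, fell by 0.66 (adjusted p = 0.0259, or 0.0509 with the block).

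The other 4 LXR members that passed were outside the rule for named genes and are given because they complete the count. Nr1h3, which encodes LXRα, had 7886 and 7826 bp in untreated and 10971 and 10340 bp in combined libraries (log2 0.45, adjusted p = 0.0477, or 0.0814 with the block). Mylip, a ubiquitin ligase gene, went from 3118 and 2775 bp to 6594 and 6364 bp (log2 1.06, adjusted p = 0.0336, or 0.0655). The apolipoprotein genes Apoe and Apoc1, whose windows overlap, fell by 0.98 and 0.80 (adjusted p = 0.039 and 0.0317, with 0.0696 for Apoe with the block). Cd5l, Smpdl3a and Mylip lost their calls without any 1 of the compared libraries (0.0567 to 0.126). Rxra lost it without untreated A, either combined or either 25HC library (0.0541 to 0.103), Aqp9 without untreated B and the same 4 (0.0616 to 0.104), and Apoc1 without combined A, either untreated or either 25HC library (0.0574 to 0.115). Apoe kept its call without combined A alone (0.0254, otherwise 0.0599 to 0.134) and Nr1h3 in none of the fits (0.0592 to 0.172).

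The exporter genes most closely tied to LXR in macrophages did not pass. Abca1 had 15463 and 12705 bp in untreated and 15164 and 16598 bp in combined libraries (log2 0.21, adjusted p = 0.495), and Abcg1 had 8135 and 7525 bp against 7764 and 7200 bp (log2 −0.02, adjusted p = 0.947). Of 32 cholesterol synthesis and SREBP target genes 0 passed, with a median of −0.05, and without 1 library at most 1 rose and 1 fell. The SREBP genes Srebf1 and Srebf2 had values of 0.07 and −0.79 (adjusted p = 0.898 and 0.129). Of 17 oxysterol-handling genes 0 passed, with a median of 0.03. Gpr183, a receptor of oxysterols that guides immune cells, had 0.63 (adjusted p = 0.0637). Ch25h had 0 and 1861 bp in untreated and 1881 and 0 bp in combined libraries, so 1 library per group was at 0 and the mean says little.

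Few stress and metabolic genes passed, and of all genes tested 7.62% did. Of 30 integrated stress response genes Hspa5 rose, a chaperone of the endoplasmic reticulum (log2 0.60, adjusted p = 0.045, or 0.0756 with the block; log2 −0.08 with 1 kb on either side of the gene), and its call ended without any 1 untreated, combined or 25HC library (0.0802 to 0.154). The stress factor gene Atf3 had 5025 and 4158 bp against 4137 and 5072 bp (log2 0.04, adjusted p = 0.911), and Trib3 had a log2 value of −0.12 (adjusted p = 0.63). Of 28 glycolysis and hypoxia genes Hif1a rose, the hypoxia regulator, from 3497 and 3351 bp to 6602 and 7365 bp (log2 0.97, adjusted p = 0.0138; 0.0526 to 0.0606 without combined B or either untreated library). PAM3 alone gave 6089 and 6180 bp. Of 20 NRF2 and metallothionein genes Prdx1, a peroxidase gene, rose by 1.32 (adjusted p = 0.0235; under the block 0.0516; 0.0518 to 0.0975 without either untreated or either 25HC library). In that list Slc40a1, the iron exporter gene, went from 5376 and 3053 bp to 1488 and 1244 bp (log2 −1.26, adjusted p = 0.0459; 0.0747 to 0.156 in all fits without 1 library but that without untreated B). The medians of the 3 lists were 0.04, 0.16 and 0.06. Of 32 lysosome and proton pump genes 0 passed, with a median of 0.06.

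Most macrophage identity genes did not pass. Of 41 measured, 3 rose (Adgre1, Cd14 and Cd36), 3 fell (C1qa, C1qb and C1qc, which overlap) and 35 did not pass, with a median of 0.01, beside 3.8% rising and 3.82% falling over all genes tested. With the block 2 rose and 2 fell. Adgre1 (chromosome 17, 57358581 to 57483529), which encodes the F4/80 antigen, had 3247 and 4010 bp in untreated, 4242 and 5210 bp in 25HC, 17121 and 21938 bp in PAM3 and 13703 and 14755 bp in combined libraries (log2 1.88, adjusted p = 0.00717). The combined values lay far above untreated cells and below both PAM3 values, but Adgre1 did not pass against PAM3 alone (limma, adjusted p = 0.217). C1qa, 1 chain of the complement recognition molecule, had 4874 and 4722 bp in untreated, 4278 and 4494 bp in 25HC, 4736 and 5136 bp in PAM3 and 1739 and 2546 bp in combined libraries (log2 −0.98, adjusted p = 0.0202). Both combined values were the lowest of the 8. C1qb and C1qc fell by 0.68 and 0.83 (adjusted p = 0.028 and 0.0285, with 0.0581 for C1qc with the block), and the windows of all 3 genes overlap. The calls ended without either untreated library for C1qa (0.0733 to 0.0874), without any 1 compared library for C1qb (0.0639 to 0.111), and also without either 25HC library for C1qc (0.0526 to 0.117).

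Of 31 scavenger and phagocytic receptor genes 3 rose (Marco, Cd36 and Trem1), 2 fell (Stab2 and Cd163) and 26 did not pass. The median was 0.01. Of all genes tested 3.8% rose and 3.82% fell. Marco, a receptor for bacteria, was at 0 in all libraries without PAM3, with 2779 and 2914 bp for PAM3 and 2347 and 1392 bp for both agents (adjusted p = 0.0147; 0.057 without untreated A). Trem1, an amplifier of inflammation, went from 1569 and 708 bp to 5760 and 6291 bp (log2 2.08, adjusted p = 0.0138; 0.0526 without combined B). Stab2 (chromosome 10, 86841194 to 87008038), a clearance receptor gene, had 6896 and 6538 bp in untreated, 5530 and 6168 bp in 25HC, 1691 and 2845 bp in PAM3 and 1543 and 1478 bp in combined libraries (log2 −1.80, adjusted p = 0.00774), and its call held in all 8 fits without 1 library. Cd163, the haemoglobin scavenger gene, fell from 3925 and 3868 bp to 2067 and 2052 bp (log2 −0.74, adjusted p = 0.0283; 0.0698 to 0.108 without any 1 compared library). Cd163 also stands in the list of 17 alternative activation genes, of which it and Clec10a fell, 0 rose and 15 did not pass, with a median of −0.35. Clec10a, a galactose lectin gene, fell by 1.03 (adjusted p = 0.0332; under the block 0.0573), and its call held without untreated B alone (0.0554 to 0.108 in the other 7). Arg1, the arginase gene, had 5059 and 5115 bp against 6082 and 6619 bp (log2 0.33, adjusted p = 0.364). Of 25 antigen presentation genes H2-DMa, a loader of class II peptides, fell by 0.60 (adjusted p = 0.0289, or 0.0531 with the block; 0.0534 to 0.117 without any 1 untreated, combined or 25HC library).

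Cell cycle genes and markers of other cells passed singly, and of all genes tested 3.8% rose and 3.82% fell. Of 37 cell cycle and mitosis genes the kinesin gene Kif4 rose and the kinase gene Plk1 fell, and both calls ended with the block (adjusted p = 0.0523 and 0.0575). Kif4 had 636 and 0 bp against 6119 and 5997 bp (log2 3.16, adjusted p = 0.0238) and Plk1 had 1978 and 2401 bp against 935 and 1081 bp (log2 −0.79, adjusted p = 0.0353). Kif4 lost its call without untreated B, either combined or either 25HC library (0.0527 to 0.0785) and Plk1 without any 1 untreated, combined or 25HC library (0.0685 to 0.134). Of 14 dendritic cell markers 2 fell and 0 rose, with a median of −0.23. Kmo (chromosome 1, 175632193 to 175660853), an enzyme of tryptophan breakdown, had 10100 and 10968 bp in untreated, 6634 and 8269 bp in 25HC, 5864 and 5893 bp in PAM3 and 2273 and 2688 bp in combined libraries (log2 −1.85, adjusted p = 0.00717). Its groups stand in that order without overlap, and the call held in all 8 fits without 1 library. Siglech, a lectin gene of plasmacytoid dendritic cells, had 4180 and 5193 bp in untreated, 325 and 329 bp in PAM3 and 1854 and 1804 bp in combined libraries (log2 −1.11, adjusted p = 0.0177; 0.0531 to 0.0654 without untreated B or combined B). In the marker lists of 9 neutrophil, 14 lymphocyte and NK, 8 fibroblast and endothelial and 12 erythroid genes, 2 rose (Camp and Klra2) and 2 fell (Cd2 and Postn). Of 24 housekeeping genes Eef2, a translation factor gene, fell by 0.70 (adjusted p = 0.0303; under the block 0.0538), and of 6 measured genes from a list silent in macrophages 0 passed. The calls of Klra2, Cd2, Postn and Eef2 all ended without any 1 of the untreated or combined libraries (0.0523 to 0.175), and those of Cd2, Postn and Eef2 also without either 25HC library.

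Many of the clearest rises lay outside these lists. Slx4ip (chromosome 2, 136891213 to 137081351), a gene of telomere maintenance whose window reaches the Notch ligand gene Jag1, had 9305 and 9322 bp in untreated, 10141 and 13310 bp in 25HC, 19009 and 25959 bp in PAM3 and 38367 and 40035 bp in combined libraries (log2 2.05, adjusted p = 0.0057). Zfp618, a zinc finger gene, had 1131 and 756 bp in untreated, 3089 and 2670 bp in 25HC, 2776 and 3317 bp in PAM3 and 7485 and 6794 bp in combined libraries (log2 2.45, adjusted p = 0.0057). Procr, the protein C receptor gene, went from 807 and 831 bp to 3403 and 3374 bp, with 1921 and 2596 bp for PAM3 (log2 1.60, adjusted p = 0.0057). In all 3 the combined libraries were the longest of the 8. Tested against PAM3 alone, Slx4ip and Procr did not pass (limma, adjusted p = 0.0686 and 0.112). Zfp618 passed that test (adjusted p = 0.0493) but not with the mouse as a block (0.0822). Slamf6, an adhesion receptor gene of immune cells, rose by 1.28 (adjusted p = 0.0057), the DNA ligase gene Lig1 by 1.71 (adjusted p = 0.00774), the betaine transporter gene Slc6a12 by 1.59 (adjusted p = 0.0073) and Zp3, best known from the egg coat, by 1.55 (adjusted p = 0.00489). Zp3 had 3058 and 3631 bp after both agents and 4125 and 4505 bp with PAM3 alone. All 7 calls against untreated cells held in all 8 fits without 1 library.

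Some windows had no peak in untreated cells. Nhs (chromosome X, 161833290 to 162159441), a gene of actin remodelling, had 0 bp with 25HC, 6011 and 7162 bp with PAM3 and 3045 and 2678 bp with both agents (adjusted p = 0.00454). Bmp1, a procollagen protease gene, had 774 and 670 bp with 25HC, 2447 and 4139 bp with PAM3 and 3427 and 3303 bp with both (adjusted p = 0.00454). Gfi1b, a repressor gene of blood cell development, had 0 bp with 25HC, 2180 and 2912 bp with PAM3 and 2194 and 2300 bp with both (adjusted p = 0.0073). Bcl2a1c, of a family of cell death inhibitors, had 313 and 369 bp with 25HC, 806 and 2019 bp with PAM3 and 3248 and 3050 bp with both (adjusted p = 0.0098). Omd, a matrix proteoglycan gene, was at 0 in all 6 other libraries and had 2453 and 3457 bp with both agents (adjusted p = 0.0139; 0.053 to 0.0877 without untreated A or either combined library). Rab29, a vesicle traffic gene, had 1399 and 1559 bp with both agents (adjusted p = 0.00632), but 2195 and 2361 bp with 25HC and 1466 and 1518 bp with PAM3, so it was at 0 in untreated cells alone. Over the tested genes, 15 windows were at 0 in both untreated libraries and called in the other 6.

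The clearest falls were windows that emptied after the combined treatment. Lrrc14b (chromosome 13, 74359582 to 74364000) had 3660 and 3748 bp in untreated, 2810 and 3177 bp in 25HC and 856 and 898 bp in PAM3 libraries, and Map3k7cl (chromosome 16, 87553330 to 87595336) had 3933 and 4175, 3355 and 3420, and 1552 and 2469 bp; both were at 0 in both combined libraries (adjusted p = 0.00318 for each). Il4, the type 2 cytokine gene, had 2222 and 2181 bp without treatment against 1409 and 1445 bp with PAM3, and Ranbp6, a nuclear import gene, 2812 and 2902 bp and 1573 and 1328 bp, before 0 bp with both agents (adjusted p = 0.00454 for each). Yars2, a mitochondrial tRNA synthetase gene, had 1804 to 1947 bp in all 6 other libraries and 0 in the combined ones (adjusted p = 0.00454). Pgap3, which acts on lipid-anchored proteins, had 1544 to 1697 bp in those 6 and 0 in the combined ones (adjusted p = 0.00717). Golph3, a Golgi gene, the sorting nexin gene Snx31 and the adhesion gene Ncam2 had 3240 and 3538, 3002 and 3113, and 7098 and 7701 bp in untreated cells and 0 after both agents (adjusted p = 0.00717, 0.00551 and 0.0101). The calls of these 9 genes held in all 8 fits without 1 library, but leaving out 1 combined library leaves the other at 0.

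Empty windows also occur by library. Over the tested genes, 55 windows were at 0 in both combined libraries and called in all 6 others, against 39 for PAM3, 17 for 25HC and 15 for untreated cells. Windows called in 7 libraries were at 0 in the remaining one 1172 times, 171 of them in combined A and 222 in combined B. Other falls kept some called length. Rab19, a vesicle traffic gene, went from 3836 and 3328 bp to 552 and 595 bp (log2 −1.89, adjusted p = 0.00454), and Prrg1, a membrane protein gene on chromosome X, from 3703 and 3576 bp to 872 and 902 bp (log2 −1.54, adjusted p = 0.00454). C1qtnf1, which encodes a C1q-related hormone, went from 5505 and 3972 bp to 249 and 331 bp (log2 −2.68, adjusted p = 0.00454). Myt1l and Asic2, best known from neurons, fell by 2.92 and 2.93 (adjusted p = 0.00774 and 0.0112), and Abca6, a lipid transporter gene, went from 4273 and 2796 bp to 0 with PAM3 and with both agents (adjusted p = 0.00774).

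Against PAM3 alone, which asks what the 25HC given first adds to cells that all received PAM3, 190 of 14589 genes passed (1.3%), 97 higher and 93 lower. This contrast shares its combined libraries with the one above. None of the 190 held with the mouse as a block (limma, smallest adjusted p = 0.072; 2112 at unadjusted p under 0.05), and 0 passed without any 1 untreated or 25HC library, whose spread the fit uses (smallest adjusted p = 0.0612; 2002 to 2065 at unadjusted p under 0.05). Without PAM3 A 434 passed, 333 of them higher. Without PAM3 B 106 were higher and 28 lower, without combined A 53 and 263, and without combined B 22 and 99. Tlr4 was 1.70 higher on the log2 scale (adjusted p = 0.018, 0.00805 to 0.0647 in the fits without 1 library), Cd14 0.89 (adjusted p = 0.0466), Cxcl2 1.001 (adjusted p = 0.0497), Slc6a12 1.36 (adjusted p = 0.022) and Zfp618 1.10 (adjusted p = 0.0493). Psmd1, a proteasome gene, had 1912 and 1866 bp with PAM3 alone and 8663 and 7951 bp with both agents (log2 1.87, adjusted p = 0.0192), beside 7263 and 8014 bp in untreated cells. Adtrp, Kcnj6 and Mamstr were also lower with PAM3 alone than with both agents, but their combined values stayed below the untreated ones. They had 9133 and 9453, 6375 and 5724, and 3357 and 3456 bp in untreated cells. PAM3 alone gave 1902 and 2368, 1436 and 1402, and 975 and 1204 bp. Both agents gave 7630 and 6824, 5099 and 5218, and 2994 and 3221 bp (limma, adjusted p = 0.022 for each against PAM3). None of these 4 passed against untreated cells (adjusted p = 0.241 to 0.697). Cd1d1, a presenter of lipid antigens, had 1027 and 1649 bp with PAM3 and 4869 and 4633 bp with both (log2 1.53, adjusted p = 0.0237). Lower than with PAM3 alone were Abcg8 and Yars2 (adjusted p = 0.0155 for each), Il4 (adjusted p = 0.0192), C1qa with a log2 difference of −1.06 (adjusted p = 0.0367) and Kmo with −1.11 (adjusted p = 0.0341). Bms1, a ribosome assembly gene, had 3241 and 3583 bp with PAM3 and 1226 and 1243 bp with both, beside 1290 and 1256 bp in untreated cells (log2 −1.18, adjusted p = 0.0219).

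Against 25HC alone, 733 genes passed (5.02%), 398 higher and 335 lower, or 281 (165 and 116) with the block. Between 25HC alone and untreated cells 5 genes differed (limma; 678 at unadjusted p under 0.05). Jph4, a junction protein gene, and Pycard, the inflammasome adaptor gene, were at 0 in both 25HC libraries. Jph4 had 1789 and 1697 bp in untreated and 4036 and 3579 bp in combined libraries, and Pycard 1555 and 1656 bp and 2178 and 2078 bp (adjusted p against 25HC = 0.00291 and 0.00456). Without 25HC A or B the count was 250 and 108, without combined B 326, and without untreated A or B 359 and 357.

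By region, 1 kb bins of chromosomes 1 to 19 were called where peaks covered at least 500 bp. Of 99195 bins called in at least 1 of the 4 libraries, 10101 (10.2%) were gained, called in both combined and neither untreated library, and 10078 (10.2%) were lost, the reverse. With only peaks of −log10 q of 5 or more the counts were unequal, with 5231 gained and 8893 lost. All 4 libraries shared 32210 bins (32.5%). Of the gained bins 28.1% were called in both PAM3 libraries and 41.3% in neither, and 5.8% in both 25HC libraries and 78.8% in neither. In none of the 4 libraries of single agents were 3555 gained bins (35.2%) called, against 13% of lost bins and 22.8% of all called bins. Of the lost bins 53.3% were called in neither PAM3 library and 19.2% in both, and 53.3% in both 25HC libraries and 18.6% in neither. Over all called bins the shares in both PAM3 and both 25HC libraries were 42.7% and 46.2%, and those in neither were 35.4% and 36.3%. Chromosome 18 had no start sites in the set used, so positions cover 9829 gained, 9728 lost, 31252 shared and 96226 of all called bins. Gained bins lay within 1 kb of a start site in 5.49% of cases and lost bins in 6.79%. The share was 31.8% of shared bins and 15.4% of all called bins. Inside gene bodies elsewhere lay 51.3% of gained, 54.5% of lost, 37.4% of shared and 49.8% of all called bins. The gene-body shares of gained and lost bins were thus near that of all called bins. The median distance to a start was 33611 bp for gained, 26222 bp for lost, 12411 bp for shared and 23233 bp for all called bins. Within 1 kb of a start 3.64% of called bins were gained and 4.45% lost, against 11.5% and 12.1% at 1 to 5 kb and 12.6% and 11% beyond 100 kb. Without combined A or B the gained bins numbered 19018 and 15849, and without untreated A or B the lost bins numbered 15948 and 17713, as a single library then decides.

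**Figure D4:**
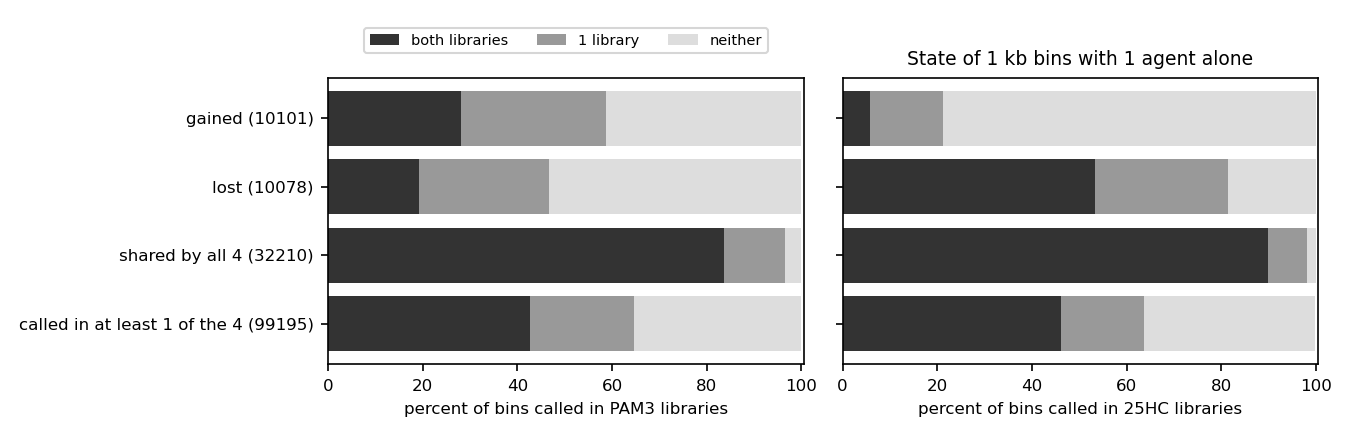
Percent of gained bins (10101), lost bins (10078), bins shared by all 4 libraries (32210) and all bins called in at least 1 of them (99195) that were called in both, 1 or neither of the PAM3 libraries (left) and of the 25HC libraries (right). Of the gained bins 28.1% were called in both PAM3 and 5.8% in both 25HC libraries, against 83.6% and 89.8% of the shared bins.

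Peaks centred in gained or lost bins had slightly lower values of the authors' fold enrichment than shared peaks of the same library. In combined A and B the medians of gained peaks were 1.69 and 1.56, against 1.75 and 1.59 for shared peaks, and in untreated A and B the lost peaks had 1.68 and 1.73 against 1.74 and 1.79. The gained peaks were narrower than the shared ones, with medians of 1341 and 1449 bp against 1523 and 1601 bp, as were the lost peaks, with 1304 and 1243 bp against 1617 and 1573 bp. Most changes were short: 6422 of 8100 gained runs and 7211 of 8562 lost runs were a single bin, and 281 and 149 were 3 bins or more.

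Of the gained runs 4 were over 4 kb long and 32 were 4 kb, and of the lost runs 1 and 14, so the 4 kb runs described here are those that come first by position among runs of equal length. The longest gained run was 6 kb on chromosome 5 (90698001 to 90704000), 55298 bp from the gene body of Cxcl5, in the neighbourhood of the neutrophil chemokine genes. Peaks covered 5939 and 5578 bp of it after both agents, 854 and 246 bp in untreated cells, 938 and 1706 bp with 25HC and 517 and 1994 bp with PAM3. The next, also 6 kb, lay 49609 bp from Nt5e, which makes adenosine (chromosome 9, 88272001 to 88278000), with 5602 and 5291 bp against 0 without treatment, and 699 and 2041 bp with PAM3. In both runs the combined libraries stood apart from all others. A 5 kb run 12192 bp from Picalm, an endocytosis gene (chromosome 7, 90113001 to 90118000), had 4955 and 4939 bp with both agents and 1674 and 4585 bp with PAM3. A 5 kb run 36037 bp from Acsl1, which activates fatty acids (chromosome 8, 46430001 to 46435000), had 4575 and 4575 bp with both agents and 4479 and 4558 bp with PAM3, and the 4 kb run in Pid1 (chromosome 1, 84297001 to 84301000) had 3104 and 3239 bp and 1302 and 3166 bp. The 3 runs were thus called with PAM3 alone in at least 1 library.

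The longest lost run was 5 kb in Ulk2, an autophagy kinase gene (chromosome 11, 61792001 to 61797000), with 4625 and 4252 bp in untreated, 3217 and 3997 bp in 25HC, 2532 and 3102 bp in PAM3 libraries and 0 after both agents. The 4 kb runs in the transporter gene Slc7a13 (chromosome 4, 19836001 to 19840000), in Trafd1, a gene of immune feedback (chromosome 5, 121386001 to 121390000), near Gna12, a G protein gene (chromosome 5, 140844001 to 140848000), and in Apobec1, an RNA editing enzyme gene (chromosome 6, 122597001 to 122601000), had 2418 to 3782 bp in untreated and 0 to 433 bp in combined libraries. With PAM3 alone these 4 had 0 to 1624 bp.

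**Figure D5:**
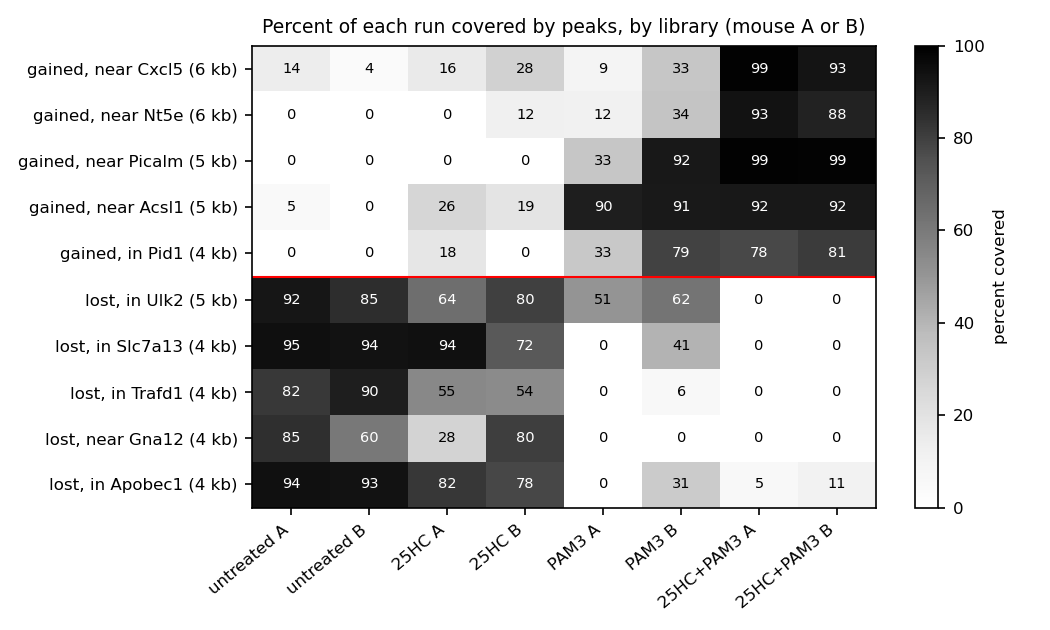
Percent of 5 gained runs (above the red line) and 5 lost runs (below it), the longest with ties taken by position, that peaks covered in each of the 8 libraries, darker for more. The runs near Cxcl5 and Nt5e were dark in the combined libraries alone, and that in Ulk2 was at 0 in those libraries alone.

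Some long genes gained or lost many bins. Lpp, a cell adhesion gene on chromosome 16 (24393350 to 24992578), held 45 gained and 3 lost bins in its window, and its called length went from 70910 and 62161 bp to 131386 and 143475 bp (log2 1.08, adjusted p = 0.00859), with 109182 and 143346 bp for PAM3. Slx4ip held 21 gained bins and 0 lost ones. Creb5, a transcription factor gene on chromosome 6 (53287226 to 53700364), held 19, and had 35046 and 29871 bp in untreated, 30074 and 37396 bp in PAM3 and 56502 and 59277 bp in combined libraries (log2 0.87, adjusted p = 0.0123). PAM3 alone thus overlapped untreated cells at Creb5 and the combined libraries at Lpp. Lpp did not pass against PAM3 alone (limma, adjusted p = 0.627). Clec16a and St7 rose by 1.39 and 1.46 (adjusted p = 0.00774 and 0.0123), and Aqp9 held 12 gained bins in a window of 67.2 kb. On the other side Rad51b, a DNA repair gene on chromosome 12 (79297282 to 79848260), held 17 lost bins and went from 58250 and 55404 bp to 31315 and 32193 bp (log2 −0.79, adjusted p = 0.0156; 0.059 to 0.0781 without combined B or either untreated library). Cmah, an enzyme of sialic acid synthesis on chromosome 13 (24327404 to 24477289), held 16 and went from 32477 and 30778 bp to 7144 and 3491 bp, with 23581 and 23072 bp for 25HC and 11154 and 13863 bp for PAM3 (log2 −2.50, adjusted p = 0.0157; 0.0571 to 0.0701 without untreated A or B). The window of Foxp1, a transcription factor gene, held 9 gained and 10 lost bins with a log2 change of −0.13 (adjusted p = 0.401). Of 20665 autosomal gene windows, 3655 held a gained bin, 4385 a lost bin and 1436 both.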

How the data were processed

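Acetylated histone H4 was mapped in 8 libraries of mouse macrophages, and each deposited file lists the broad peaks of 1 library. The tools named in the submitters' processing notes are GSNAP and MACS2 2.1.0, with build GRCm38; controls, thresholds and read filters were not given in the sources used here. For each peak the deposited columns give its position, a score, the fold enrichment (a ratio) and −log10 of p and q. The authors' files hold no read counts, so depth and counting error are unknown.

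Called bp were summed over gene bodies of protein-coding genes (RefSeq, GRCm38.p6) with 5 kb on either side. Genes with a mean of 500 bp or more over the 8 libraries were tested on log2(bp + 500) minus the library median with limma 3.58.1 (R 4.3.3, trend and robust settings, 4 residual degrees of freedom), as means of 4 groups that share 1 estimate of spread, and p-values were adjusted by Benjamini-Hochberg over all 14589 genes. The script was tested on simulated data. Each group has 1 library per mouse, so the mouse was also fitted as a block; deviations of same-mouse libraries correlated by −0.017 to 0.0304. Alternatives were other pseudocounts, filters, flanks, peak subsets, bin cover and each library left out.

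Named genes passed with the same sign in both mice and had 1 of the 12 smallest p or 12 largest changes per direction, were among the 5 smallest p of a list or were 1 of 32 fixed genes; for the other contrasts the 8 smallest p per direction were taken, and for regions the 5 longest runs (ties by position) and the 10 windows with most bins. The members and lists were chosen with earlier results of these data known. Some genes that this rule names are not reported here.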

Additional observations from a re-analysis of the deposited data

How the results depend on the processing

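The counts of genes passing are given here for the combined treatment against untreated cells, against PAM3 and against 25HC, in that order. They were 1112, 190 and 733 with every peak, with limma over all 8 libraries. With bp weighted by the authors' fold enrichment they were 137, 0 and 125. Without subtraction of the library median they were 575, 91 and 360. With a fit on the 4 libraries of each comparison they were 199, 0 and 1. With peaks of −log10 q of 5 or more they were 0, 0 and 0. With each library cut to the same covered length they were 118, 0 and 0. With each cut to the same number of peaks they were 643, 59 and 383. A filter of 2000 bp gave 90 against PAM3. For the counts of 0 against PAM3 limma gave 1733, 1789, 1342 and 1267 genes at unadjusted p under 0.05 with weighting, the 4 libraries, the −log10 q filter and the same length, and for those of 0 against 25HC 1516 with the filter and 1772 with the same length. Without median subtraction the split against untreated cells was 243 rising and 332 falling, and in the fit on 4 libraries 113 and 86. With the mouse as a replicate block they were 575, 0 and 281. Without 1 library they ran from 302 to 1144, from 0 to 434 and from 108 to 814. Other pseudocounts, no filter, 1 kb flanks and, added after seeing the data, only genes called in all 8 libraries kept each count within 1.5 times. Gained bins numbered 15327 with 100 bp covered, 6018 with 900 bp and 5231 with the −log10 q filter, and lost bins 6038 with 900 bp; without 1 library they ran from 12684 to 19018 and from 13218 to 17713. The cause of these changes was not tested.

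Log2 values against untreated cells changed sign with the −log10 q filter, to Tnf −1.74, Il10 2.23, Nos2 −1.07, Cd14 −0.78, Tlr5 0.47, Igtp −0.51, Ifit1 −0.23, Nr1h3 −1.40, Abcg1 0.0914, Srebf1 −0.93, Srebf2 0.0334, Atf3 −1.43, Hif1a −0.30, Trem1 −1.18, Clec10a 0.32, Slamf6 −0.0501, Prrg1 0.38, Psmd1 −0.66, Adtrp 1.24, Bms1 −0.71 and Jph4 −0.36. Log2 values against untreated cells changed sign with 1 kb flanks, to Il12b 0.13, Hspa5 −0.0801 and Trib3 0.0919. Log2 values against untreated cells changed sign with the same covered length, to Il10 0.43, Srebf1 −0.0265, Psmd1 −0.42, Adtrp 0.84 and Mamstr 0.37. Log2 values against untreated cells changed sign with the same number of peaks, to Srebf1 −0.54, Psmd1 −0.11 and Adtrp 0.0699. Log2 values against untreated cells changed sign with weighting by fold enrichment, to Adtrp 0.40, Mamstr 0.30 and Bms1 −0.54. Log2 values against untreated cells changed sign without median subtraction, to Bms1 −0.0316. Without 1 library the sign changed for Ch25h −1.12 to 1.21, Nos2 −0.14 to 0.95, Ifit1 −0.79 to 2.0, Abcg1 −0.12 to 0.0693, Srebf1 −0.0609 to 0.20, Atf3 −0.0714 to 0.15 and Bms1 −0.0282 to 0.0411, none of which passed with all libraries. The files hold no read counts, so depth is unknown.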

Other observations

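The following regions were picked after their values were seen. A 4 kb gained run inside Ly75, an endocytic receptor gene, was covered for 4000 and 3835 bp after both agents and for 0 bp in all 6 other libraries. A gained run of 4 kb lay 17815 bp from Il1a, an interleukin-1 gene, with 3967 and 4000 bp after both agents, 0 and 719 bp without treatment, and 0 and 1967 bp with PAM3 alone. A gained run 21901 bp from Zfp281, a zinc finger gene, had 3223 and 3211 bp after both agents and 3324 and 3430 bp with PAM3 alone. Among lost runs, that in Il16, a lymphocyte attractant gene, had 3063 and 4000 bp in untreated cells, 2461 and 1706 bp with PAM3 and 492 and 481 bp after both agents. The run in Chp2, a calcium-binding protein gene, had 3136 and 3181 bp in untreated cells and 0 bp in all 4 libraries with PAM3.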
